A study of Mus musculus with 6 samples.

Results

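The genes of the proteasome were compared between 2 genotypes in cells labelled as OB progenitors. The members were chosen by symbol and count, as the genes whose symbols begin with Psm, a letter from a to g and a number and that have at least 10 estimated counts in at least 3 libraries. Of 17469 genes in the count table, 50 symbols fit the letters and 49 also met the count minimum. All 49 reached it in each of the 6 libraries, so no gene entered through only 1 genotype. Psmb11, the thymus subunit, was just outside with 3.31 to 8.09 counts per library, and just inside were Psmc3ip with 28 to 52 and Psma8 with 40 to 60. Psmc3ip shares the letters alone and encodes a recombination factor, which leaves 48 genes of proteasome subunits, activators, an inhibitor and assembly factors.

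RNA-seq was carried out on tdTomato+ cells sorted by FACS from BMSC cultures, that is from marrow cells of femurs and tibias that attach and grow in a dish. The control libraries (n = 3) came from 6-month-old OCN-Cre;Ai9 mice and the others (n = 3) from 6-month-old TgAPPsweOCN;Ai9 mice, which carry TgAPPswe in addition. Both genotypes carry OCN-Cre, which places Cre under the osteocalcin promoter, and Ai9, a reporter that turns cells tdTomato+ once Cre has acted. In TgAPPsweOCN mice this recombinase also excises a stop cassette upstream of a human APP transgene with the Swedish mutation (APPswe), and APP is the precursor of amyloid beta. The labels name no treatment and do not give how many mice stand behind a library, so p-values measure only the spread between these libraries.

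The proteasome degrades proteins that carry ubiquitin chains. Its 20S core is a barrel of 2 outer rings of alpha subunits (Psma genes) and 2 inner rings of beta subunits (Psmb genes), of which Psmb5, Psmb6 and Psmb7 cut the protein chain. The 19S particle caps the barrel: its ATPases (Psmc genes) unfold the substrate, and its non-ATPase subunits (Psmd genes) bind and remove ubiquitin. Immune cells, and other cells exposed to interferon, can build Psmb8, Psmb9 and Psmb10 into new barrels in place of Psmb5, Psmb6 and Psmb7. Macrophages and dendritic cells are known for such immunoproteasomes, whose peptides are loaded onto MHC class I. The activators made by Psme genes are alternative caps.

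The sequences just before 5 of these genes are shown because the results turn on them. Psma6 and Psme2 had the 2 largest fold changes of all members, Psme1 encodes the partner of Psme2 in the same ring, and Psmb8 and Psmb9 are neighbours in the MHC of which Psmb8 was raised and Psmb9 did not pass. Each run holds the 250 bases before a RefSeq transcription start in GRCm38.p6, the assembly that mm10 names, read 5′ to 3′ on the strand of the gene. The capitals mark CCAAT on either strand in the Psma6 and Psmb9 runs and TTCNNNGAA in the Psmb8 run.
Psma6, first start, chr12:55383972-55384221, plus strand: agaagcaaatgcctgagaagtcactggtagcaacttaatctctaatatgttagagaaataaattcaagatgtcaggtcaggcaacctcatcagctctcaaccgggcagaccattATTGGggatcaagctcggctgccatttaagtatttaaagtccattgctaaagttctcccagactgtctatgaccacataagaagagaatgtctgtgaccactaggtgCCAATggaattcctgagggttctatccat
Psma6, second start, chr12:55398575-55398824, plus strand: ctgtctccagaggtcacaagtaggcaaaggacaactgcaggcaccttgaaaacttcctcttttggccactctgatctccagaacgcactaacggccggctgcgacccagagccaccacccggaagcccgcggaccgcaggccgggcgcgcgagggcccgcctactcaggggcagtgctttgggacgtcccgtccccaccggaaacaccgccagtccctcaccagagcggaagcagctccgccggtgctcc
Psme1, chr14:55578244-55578493, plus strand: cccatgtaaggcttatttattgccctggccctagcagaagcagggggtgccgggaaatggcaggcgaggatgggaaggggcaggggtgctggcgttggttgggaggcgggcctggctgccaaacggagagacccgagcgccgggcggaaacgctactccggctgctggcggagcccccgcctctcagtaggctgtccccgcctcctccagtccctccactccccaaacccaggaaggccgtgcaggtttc
Psme2, chr14:55591102-55591351, minus strand: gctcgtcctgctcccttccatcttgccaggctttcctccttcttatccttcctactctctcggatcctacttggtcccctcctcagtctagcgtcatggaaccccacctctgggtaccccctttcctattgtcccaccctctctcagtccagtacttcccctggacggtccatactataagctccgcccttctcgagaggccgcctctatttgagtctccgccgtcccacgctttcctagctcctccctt
Psmb8, chr17:34197945-34198194, plus strand: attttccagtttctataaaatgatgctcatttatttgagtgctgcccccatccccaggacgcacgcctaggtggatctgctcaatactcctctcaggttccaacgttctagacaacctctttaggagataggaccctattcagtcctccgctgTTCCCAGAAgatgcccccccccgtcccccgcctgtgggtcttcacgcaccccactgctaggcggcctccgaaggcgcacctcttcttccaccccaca
Psmb9, chr17:34187331-34187580, minus strand: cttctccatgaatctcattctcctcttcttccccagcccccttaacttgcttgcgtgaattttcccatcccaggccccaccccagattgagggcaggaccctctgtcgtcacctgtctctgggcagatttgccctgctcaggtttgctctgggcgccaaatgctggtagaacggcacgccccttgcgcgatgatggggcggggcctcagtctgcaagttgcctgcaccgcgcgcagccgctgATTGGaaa

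For 40 of the 49 members a RefSeq start was used here, and their 43 windows of 250 bases were searched on both strands for 4 strings of letters. TTCNNNGAA, the letters of a gamma-activated site, lay in 4.65% of the windows (those of Psmb8 and Psmg1) and in 7.02% of all 32851 windows. The core of an interferon-stimulated response element (GAAA, any 2 bases and GAAA) lay in 6.98% (Psmb3, Psmd4 and Psmd9), against 2.98% of all windows. TGACNNNGC, the core of the antioxidant response element used by Nfe2l1 and related factors, lay in 11.6% (Psmb5, Psmb6, Psmc6, Psmd12 and Psmd9), against 10.2%. CCAAT, the letters bound by NF-Y, lay in 30.2% against 33.85%. The windows of Psme1 and Psme2 shown above held none of the 4 strings. A match in these letters is a description of the window and not a binding site.

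The depth of the libraries was 19340810 to 19801060 estimated counts for control and 21677461 to 22037840 for TgAPPsweOCN;Ai9 cells. App, whose reads may come from the mouse gene or the human transgene in this table, was at 281, 275 and 281 FPKM in control and 325, 332 and 333 in TgAPPsweOCN;Ai9 libraries (log2 fold change 0.45 ± 0.05 SE, edgeR adjusted p = 7.87e-05). FPKM are mapped fragments per kilobase of a gene, scaled to the library. The cells are labelled as OB progenitors, but all 15 listed myeloid markers reached 1 FPKM in at least 1 library, and their summed FPKM was 19855 to 20626 in control and 16465 to 20202 in TgAPPsweOCN;Ai9 libraries. These sums, of which Lyz2 alone made up a mean of 9057 and 6977 FPKM, cover single markers that moved in both directions: edgeR called 6 of the 15 raised (adjusted p at or below 0.05), among them Aif1 (log2 fold change 2.04), Adgre1 (1.89), Itgam (1.26) and Fcer1g (1.11). Another 6 were lowered, among them Mrc1 (-2.38), Csf1r (-1.49), Fcgr3 (-1.42) and Cd68 (-1.26), and 3 did not pass. Of 15 stromal and osteoblast markers 14 reached it, with sums of 226 to 271 and 175 to 256, and the osteocalcin gene Bglap itself, which was not tested, had a mean of 0.857 and 0.273 FPKM. Of these 15, 3 were raised (Dcn 3.92, Col3a1 0.74 and Alpl 0.57), 3 were lowered (Sp7 -0.78, Pdgfrb -0.55 and Sparc -0.39) and 8 did not pass. Other lists were low: 2 of 9 lymphoid markers in the table reached 1 FPKM (sums 4.61 to 5.93 and 4.57 to 6.16), 6 of 8 neutrophil markers (13.0 to 52.1 and 18.8 to 50.0), and 4 of 6 erythroid and endothelial markers (3.82 to 5.99 and 5.20 to 6.10). Of 8 dendritic cell markers only H2-Aa reached it, and it carried the list's sum from 197 to 250 in control down to 15.5 to 29.0 in TgAPPsweOCN;Ai9 libraries. Of these 8, H2-Aa was lowered (-3.16), Xcr1, under 1 FPKM in every library, was raised (1.88), 1 did not pass and 5 were not tested. No listed marker was at 0 in all libraries. The part of these cell types in the results was not tested, and in bulk RNA fewer cells of a type and less RNA per cell cannot be told apart.

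In TgAPPsweOCN;Ai9 cells most proteasome genes were raised, and most of them by less than 1 on the log2 scale. Raised and lowered genes were those whose p, adjusted after Benjamini-Hochberg over 12701 genes in edgeR's quasi-likelihood test, did not exceed 0.05. Of the 49 members 38 were raised, against 32.5% of all genes tested, and 1 was lowered, against 31.5%. The lowered gene was Psmc3ip, so 0 of the 48 proteasome genes were called lowered by edgeR, with 0 also at an unadjusted p under 0.05, 0 in DESeq2 and 3 when edgeR scaled by library size alone. The median log2 fold change over the 49 was 0.60, and over all genes tested it was -0.02. With a log2 fold change of at least 1 as a second threshold, 4 members were raised (Psmd10, Psmb8, Psma6 and Psme2), against 8.90% of all genes, and 0 were lowered, against 9.20%. The 49 members together held a share of all estimated counts of 0.358% to 0.373% in control and 0.506% to 0.532% in TgAPPsweOCN;Ai9 libraries, ranges that do not overlap.

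**Figure D1:**
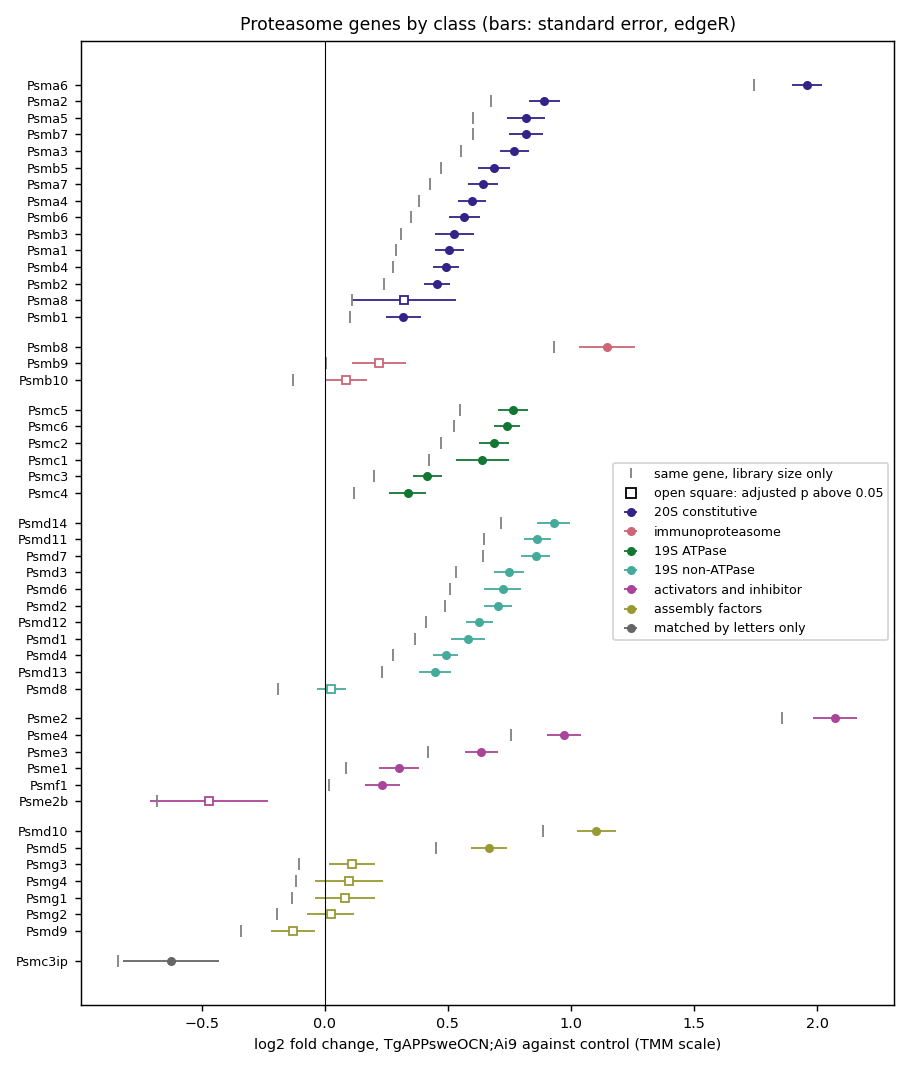
Log2 fold change of the 49 members on the x axis, TgAPPsweOCN;Ai9 against control, by class on the y axis, with the standard error of edgeR as bars and grey ticks for the same gene scaled by library size only. The core and 19S subunits lie mostly between 0.32 and 0.93 with Psma6 at 1.96, Psme2 stands at 2.07, and Psmg1 to Psmg4 sit near 0.

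The scale on which genes are compared matters for the smaller values. TMM, the normalization of the test, placed the median of all genes at -0.02, while scaling by library size alone placed it at -0.23, and FPKM follow the latter. On library size alone 34 members were raised, against 22.1% of all genes, and 4 were lowered, against 45.9%. The distance of the median of the 48 proteasome genes from that of all genes was 0.63 on both scales. A change of scaling moves all genes by nearly the same amount, so this distance could hardly differ between them. Over the other fits it ran from 0.55 to 0.66. In FPKM, 34 of the 49 members were above every control library in every TgAPPsweOCN;Ai9 library, against 24.0% of all genes tested. Another 5 were below in every one (Psmc3ip, Psmd8, Psmd9, Psme2b and Psmg3), against 48.3%, and 10 overlapped.

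Of the 20S core, 14 of 15 constitutive genes were raised, against 32.5% of all genes tested. In FPKM, 13 were above every control library in every TgAPPsweOCN;Ai9 library, against 24.0%. All 7 alpha genes Psma1 to Psma7 were raised, and their log2 fold changes had a median of 0.77, or 0.71 without Psma6. Psma6, an alpha subunit like the others and required in every barrel, was at 89.55, 89.47 and 85.9 FPKM in control and at 306, 299 and 283 FPKM in TgAPPsweOCN;Ai9 libraries. Every TgAPPsweOCN;Ai9 library was thus far above every control library. Its log2 fold change was 1.96 ± 0.06 (SE, edgeR adjusted p = 8.50e-08), while the other 6 alpha genes lay between 0.51 (Psma1) and 0.89 (Psma2). In control libraries the FPKM of Psma6 was 1.10 to 1.13 times the median of the other 6 alpha genes, and in TgAPPsweOCN;Ai9 libraries it was 2.79 to 2.96 times that median. The Psma6 gene (chromosome 12, 55384222 to 55418459) lies on the plus strand, and whether the counting used strand is not given in the sources used here.

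**Figure D2:**
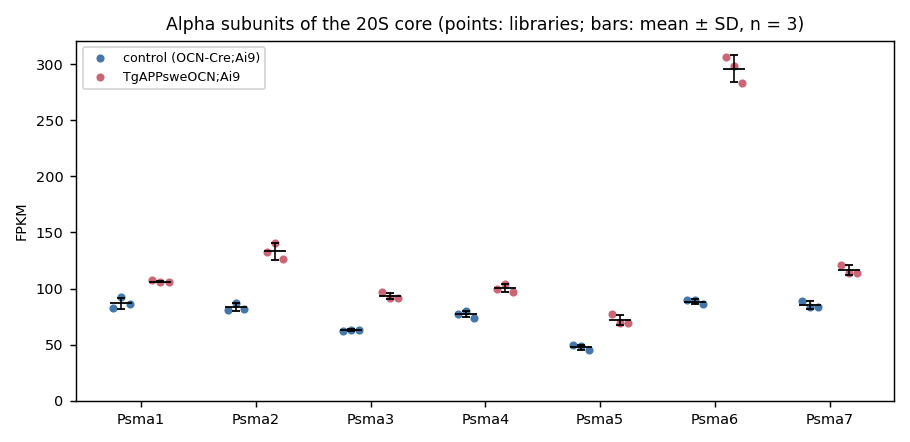
FPKM of the 7 alpha subunit genes on the y axis in each library, with control in blue and TgAPPsweOCN;Ai9 in red, and bars for the mean ± SD (n = 3). Psma6 lies close to Psma1 and Psma7 in control libraries and between 283 and 306 FPKM, above all of them, in TgAPPsweOCN;Ai9 libraries.

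All 7 constitutive beta genes, Psmb1 to Psmb7, were raised, against 32.5% of all genes tested, and 6 of them on library size alone, against 22.1%. The median of their log2 fold changes was 0.53. Psmb1, a structural beta subunit, had the smallest, at 114, 98.0 and 108 FPKM in control and 119, 113 and 111 FPKM in TgAPPsweOCN;Ai9 libraries. Its values overlapped, and its log2 fold change of 0.32 ± 0.07 (edgeR adjusted p = 0.00434) was 0.10 (adjusted p = 0.206) on library size alone. Psma8, a testis form of an alpha subunit, was at 1.15 to 1.74 FPKM over all 6 libraries and did not pass (edgeR adjusted p = 0.212).

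All 3 constitutive catalytic subunits were raised. Of their immunoproteasome counterparts 1 of 3 was raised, a share near the 32.5% of all genes tested. Psmb5, the chymotrypsin-like subunit, was at 78.4, 77.6 and 69.3 FPKM in control and 105, 106 and 102 FPKM in TgAPPsweOCN;Ai9 libraries (log2 fold change 0.69 ± 0.07, edgeR adjusted p = 3.16e-05). Psmb8, which takes its place, was at 105, 75.55 and 84.3 FPKM in control and 170, 175 and 160 FPKM in TgAPPsweOCN;Ai9 libraries (1.15 ± 0.11, edgeR adjusted p = 3.65e-05). Both genes were higher in every TgAPPsweOCN;Ai9 library.

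In the second pair the constitutive form was raised and its counterpart did not pass. Psmb6, the caspase-like subunit, went from 102, 105 and 96.9 to 135, 127 and 125 FPKM (log2 fold change 0.57 ± 0.06, edgeR adjusted p = 8.44e-05). Psmb9, its counterpart, was at 48.1, 36.5 and 44.2 FPKM in control and 41.4, 47.7 and 40.3 FPKM in TgAPPsweOCN;Ai9 libraries, with values that overlapped (0.22 ± 0.11, edgeR adjusted p = 0.114). The Psmb9 gene overlaps Tap1 on the opposite strand, and Tap1 was raised.

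In the remaining pair, too, the counterpart did not pass, and the difference between the genes of a pair was not tested. Psmb7, the trypsin-like subunit, went from 87.6, 84.5 and 77.1 to 125, 135 and 121 FPKM (log2 fold change 0.82 ± 0.07, edgeR adjusted p = 1.49e-05). Psmb10, its counterpart, was at 64.7, 54.4 and 53.2 FPKM in control and 53.6, 52.8 and 51.8 FPKM in TgAPPsweOCN;Ai9 libraries (0.09 ± 0.08, edgeR adjusted p = 0.394, and -0.13 on library size alone). Control replicate 1 had the highest value of Psmb8, Psmb9 and Psmb10 among the control libraries. Without it the log2 fold changes of Psmb9 and Psmb10 were 0.31 and 0.18, with edgeR adjusted p of 0.0361 and 0.0295, and all 3 immunoproteasome genes were then called raised. Without control replicate 2 they were 0.11 and 0.04 (edgeR adjusted p = 0.357 and 0.724), and without control replicate 3 that of Psmb10 was 0.02 (adjusted p = 0.856).

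As a share of the FPKM of each pair, Psmb8 made up 53.8% ± 4.05 (SD, n = 3) of Psmb8 and Psmb5 in control and 61.8% ± 0.554 in TgAPPsweOCN;Ai9 libraries. Psmb9 made up 29.7% ± 3.44 and 25.0% ± 2.02 of its pair, and Psmb10 40.8% ± 1.64 and 29.4% ± 1.15. The library values did not overlap for Psmb8, where the share was higher in TgAPPsweOCN;Ai9 libraries, or for Psmb10, where it was lower, and they overlapped for Psmb9. These shares were not tested, and an exact two-sided permutation test of 3 libraries against 3 cannot give a p below 0.1.

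**Figure D3:**
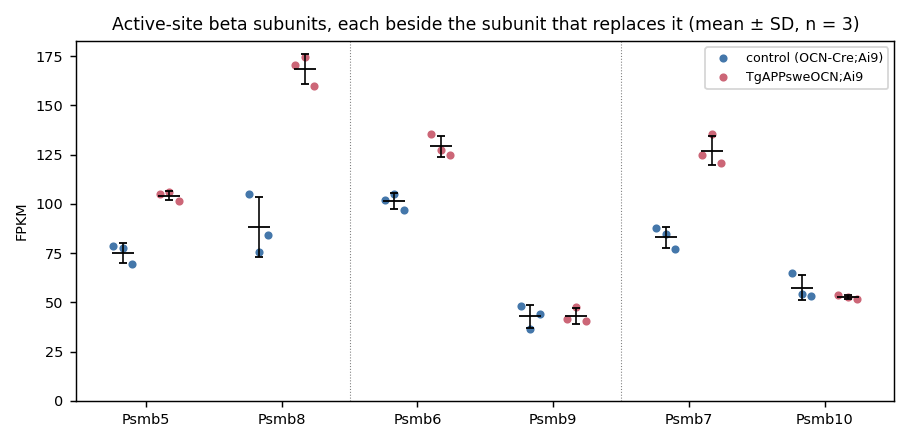
FPKM of the 3 catalytic beta subunits and of the immunoproteasome subunit that replaces each, with control in blue, TgAPPsweOCN;Ai9 in red and bars for the mean ± SD (n = 3). Psmb5, Psmb8, Psmb6 and Psmb7 are higher in every TgAPPsweOCN;Ai9 library, while Psmb9 and Psmb10 overlap between the genotypes.

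Of the 19S particle, 16 of 17 genes were raised, against 32.5% of all genes tested, and 15 on library size alone, against 22.1%. All 6 ATPase genes were raised, from Psmc4 to Psmc5. Psmc5 was at 63.5, 64.6 and 60.8 FPKM in control and 91.9, 97.8 and 86.5 FPKM in TgAPPsweOCN;Ai9 libraries, with no overlap (log2 fold change 0.76 ± 0.06, edgeR adjusted p = 1.22e-05). Psmc4 was at 75.6, 69.8 and 71.1 FPKM in control and 84.8, 75.9 and 74.4 FPKM in TgAPPsweOCN;Ai9 libraries. Its values overlapped, and its log2 fold change of 0.34 ± 0.08 (edgeR adjusted p = 0.00416) was 0.12 (adjusted p = 0.150) on library size alone.

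Of the 11 non-ATPase genes 10 were raised, against 32.5% of all genes tested, and the median over all 11 was 0.70 on the log2 scale, against -0.02 over all genes. Psmd14, the enzyme that cuts ubiquitin chains from the substrate, had the largest, at 35.0, 38.6 and 35.8 FPKM in control and 62.3, 57.6 and 59.4 FPKM in TgAPPsweOCN;Ai9 libraries (log2 fold change 0.93 ± 0.07, edgeR adjusted p = 6.08e-06). Psmd11, a scaffold subunit of the lid, and Psmd7, the partner of Psmd14, followed at 0.86 each. The ubiquitin receptor Psmd4 (0.49) and Psmd2 (0.70), a scaffold that binds shuttle proteins, were raised too. Psmd8, a lid subunit, was the exception at 119, 127 and 118 FPKM in control and 109, 105 and 105 FPKM in TgAPPsweOCN;Ai9 libraries, lower in each of them. Its log2 fold change was 0.03 ± 0.06 (edgeR adjusted p = 0.710) under TMM and -0.19 (adjusted p = 0.0126) on library size alone, so its direction depends on the scale, and it was also below 0 under TMM without control replicate 3 or TgAPPsweOCN replicate 1.

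Among the activators and the inhibitor, 5 of 6 genes were raised, against 32.5% of all genes tested, and 3 of 6 on library size alone, against 22.1%. The largest value was that of Psme2, about 1 SE above that of Psma6. Psme1 and Psme2 encode the alpha and beta chains of PA28, a ring that interferon gamma induces and that opens the 20S barrel. Psme2 was at 121, 112 and 112 FPKM in control and 464, 384 and 406 FPKM in TgAPPsweOCN;Ai9 libraries (log2 fold change 2.07 ± 0.09, edgeR adjusted p = 4.04e-07). Psme1 was at 154, 126 and 132 FPKM in control and 150, 146 and 142 FPKM in TgAPPsweOCN;Ai9 libraries, which overlapped (0.30 ± 0.08, edgeR adjusted p = 0.0113, and 0.09 with adjusted p = 0.355 on library size alone). Without control replicate 3 the edgeR adjusted p of Psme1 was 0.0507. The FPKM of Psme2 was 0.786 to 0.887 times that of Psme1 in control and 2.64 to 3.09 times in TgAPPsweOCN;Ai9 libraries. The RNA levels of the partner genes were thus nearer to each other in each control library than in any TgAPPsweOCN;Ai9 library.

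Psme2b, a near-identical copy of Psme2, can share reads with it, and both genes held fractional counts. Psme2b also overlaps 2 protein-coding genes on its strand, Gm12185 and 9930111J21Rik1. It was at 15.4, 12.6 and 13.4 FPKM in control and 5.07, 11.3 and 9.41 FPKM in TgAPPsweOCN;Ai9 libraries (log2 fold change -0.47 ± 0.24, edgeR adjusted p = 0.117). Without TgAPPsweOCN replicate 1, its lowest library, the value was -0.21 (edgeR adjusted p = 0.199), without TgAPPsweOCN replicate 2 it was -0.70 (edgeR adjusted p = 0.0253), and on library size alone it was -0.68, with adjusted p = 0.0406. Psme2b held 11.9% to 13.2% of the counts of both genes in control and 1.30% to 3.42% in TgAPPsweOCN;Ai9 libraries, so how reads were divided between the copies makes its own value uncertain. With the counts of both genes added together the log2 fold change was 1.92 (edgeR adjusted p = 4.70e-07), below the 1.96 of Psma6, so the order of Psme2 and Psma6 depends on how these reads are divided.

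The genes of the other caps were raised by less than Psme2. Psme4, which encodes PA200, a nuclear activator, was at 14.4, 14.2 and 16.3 FPKM in control and 23.9, 26.8 and 25.2 FPKM in TgAPPsweOCN;Ai9 libraries (log2 fold change 0.97 ± 0.07, edgeR adjusted p = 4.93e-06). Psme3, which encodes the nuclear PA28 gamma, was at 40.4, 44.8 and 43.9 FPKM in control and 60.3, 54.8 and 57.5 FPKM in TgAPPsweOCN;Ai9 libraries (0.64 ± 0.07, edgeR adjusted p = 5.76e-05). Both were higher in every TgAPPsweOCN;Ai9 library. Psmf1, the inhibitor PI31, was at 11.02, 9.38 and 10.02 FPKM in control and 10.3, 9.89 and 10.2 FPKM in TgAPPsweOCN;Ai9 libraries, which overlapped. Its log2 fold change of 0.23 ± 0.07 (edgeR adjusted p = 0.0188) was 0.02 on library size alone (adjusted p = 0.829). Leaving out control replicate 2, control replicate 3, TgAPPsweOCN replicate 1 or TgAPPsweOCN replicate 3 also ended the call, with log2 fold changes of 0.19 to 0.23 and edgeR adjusted p of 0.0502 to 0.0716.

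**Figure D4:**
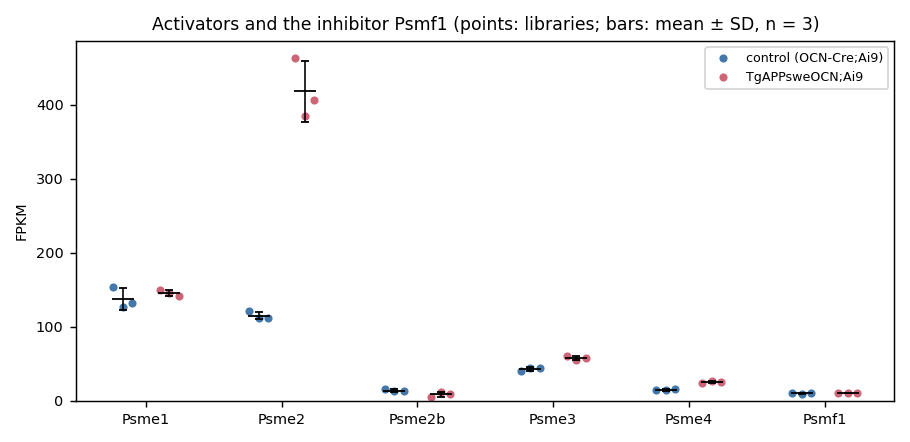
FPKM of the activator genes and of the inhibitor gene Psmf1 on the y axis in each library, with control in blue, TgAPPsweOCN;Ai9 in red and bars for the mean ± SD (n = 3). Psme2 is near 115 FPKM in control and near 418 FPKM in TgAPPsweOCN;Ai9 libraries, while its partner Psme1 overlaps between the genotypes.

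Of the assembly factors 2 of 7 were raised, a share near the 32.5% of all genes tested. Psmd10, the chaperone gankyrin, which holds the ATPase Psmc4 during assembly, was at 14.0, 14.5 and 12.7 FPKM in control and 25.7, 24.1 and 26.2 FPKM in TgAPPsweOCN;Ai9 libraries (log2 fold change 1.10 ± 0.08, edgeR adjusted p = 5.42e-06). Psmd5, another chaperone of the 19S base, was raised by 0.67 on the log2 scale. Psmd9, which assists the same base, was at 11.3, 10.3 and 9.98 FPKM in control and 8.26, 9.19 and 7.51 FPKM in TgAPPsweOCN;Ai9 libraries. All 3 of its TgAPPsweOCN;Ai9 values were lower, with a log2 fold change of -0.13 ± 0.09 (edgeR adjusted p = 0.240) under TMM and -0.34 (adjusted p = 0.00998) on library size alone. Psmg1 to Psmg4, the chaperones that build the alpha ring, lay between 0.02 and 0.11, and none passed. On library size alone their values were all below 0, so no direction can be given for them.

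Psmc3ip, the gene matched by its letters alone, was at 2.96, 2.53 and 2.65 FPKM in control and 1.56, 1.52 and 1.43 FPKM in TgAPPsweOCN;Ai9 libraries. It was lower in every TgAPPsweOCN;Ai9 library (log2 fold change -0.63 ± 0.19, edgeR adjusted p = 0.0201). It did not pass in DESeq2 (adjusted p = 0.115) or without control replicate 1, TgAPPsweOCN replicate 2 or TgAPPsweOCN replicate 3 (edgeR adjusted p = 0.0546, 0.0551 and 0.0722), where its log2 fold change was -0.61, -0.57, -0.62 and -0.58 in turn.

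In control cells the highest mean FPKM belonged to Psmb2 (139 ± 4.48, SD) and Psme1 (137 ± 14.8), which lie within the spread of each other. In TgAPPsweOCN;Ai9 cells the order was led by Psme2 (418 ± 41.0), Psma6 (296 ± 11.8) and Psmb8 (168 ± 7.61), which held ranks 4, 9 and 10 in control. Psmb2 followed Psmb8 at 164 ± 6.61, within its spread. By class, the median FPKM of the 15 constitutive core genes went from 85.4 to 116, that of the 6 ATPase genes from 67.0 to 81.4 and that of the 11 non-ATPase genes from 47.5 to 67.7. The 7 assembly factors were lower in level than either, at 13.7 and 12.6.

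Genes that act together with the proteasome were taken from 5 lists, whose counts stand against 32.5% raised and 31.5% lowered over all genes tested. Of 11 tested genes for other proteins bound to the proteasome, 9 were raised, from Sem1, a small 19S subunit (0.24, and 0.02 on library size alone), to Zfand5, which stimulates the 26S proteasome (1.77), and 0 were lowered. Of 6 genes that control proteasome gene transcription 2 were raised, a share close to that of all genes, and 3 were lowered. The largest rise there was that of Nfe2l1, the factor that drives proteasome genes when degradation falls short (1.39 ± 0.06, edgeR adjusted p = 2.52e-07), and the largest fall that of Nfyb, an NF-Y subunit (-0.36). Ddi2, the protease that activates the Nfe2l1 protein, was lowered (-0.33), and Ngly1, which removes its sugars, was raised (0.22, and 0.01 on library size alone).

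Of 17 genes for ubiquitin, its E1 enzymes and shuttle factors, 9 were raised, 3 were lowered and 5 did not pass. They ranged from Ubqln2, a shuttle (-0.47), to Uba6, an E1 enzyme (1.04), and the shuttle Rad23b was at 0.99. The ubiquitin gene Ubb was raised (0.26, and 0.05 on library size alone), and Rps27a, which encodes ubiquitin fused to a ribosomal protein, was at -0.03 and did not pass. On library size alone 8 of the 17 were lowered, where 45.9% of all genes were.

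All 9 genes for peptide trimming and transport were raised, from Thop1, a peptidase that destroys peptides (0.24, and 0.03 on library size alone), to Tap1, a chain of the transporter into the endoplasmic reticulum (1.50 ± 0.11, edgeR adjusted p = 7.49e-06). B2m, the light chain of MHC class I, was at 1.18 and the loading factor Tapbp at 1.03. On library size alone 6 of the 9 were raised, where 22.1% of all genes were, and 0 were lowered.

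Of 14 genes of interferon signalling 8 were raised and 5 were lowered. By at least 1 on the log2 scale 5 were raised and 1 was lowered, against 8.90% and 9.20% of all genes. Socs1, a feedback inhibitor, had the largest log2 fold change (2.85 ± 0.11, edgeR adjusted p = 2.05e-07). Nlrc5, the transactivator of MHC class I genes, was raised (1.33), whereas Irf1, a factor that induces immunoproteasome genes, was lowered (-0.48). The receptor genes Ifngr1 (-1.10), Ifnar1 (-0.68) and Ifnar2 (-0.79) were lowered, and Ifngr2 was raised (0.30, and 0.09 on library size alone). The list thus held raised and lowered genes at more than 1 step of the pathway.

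**Figure D5:**
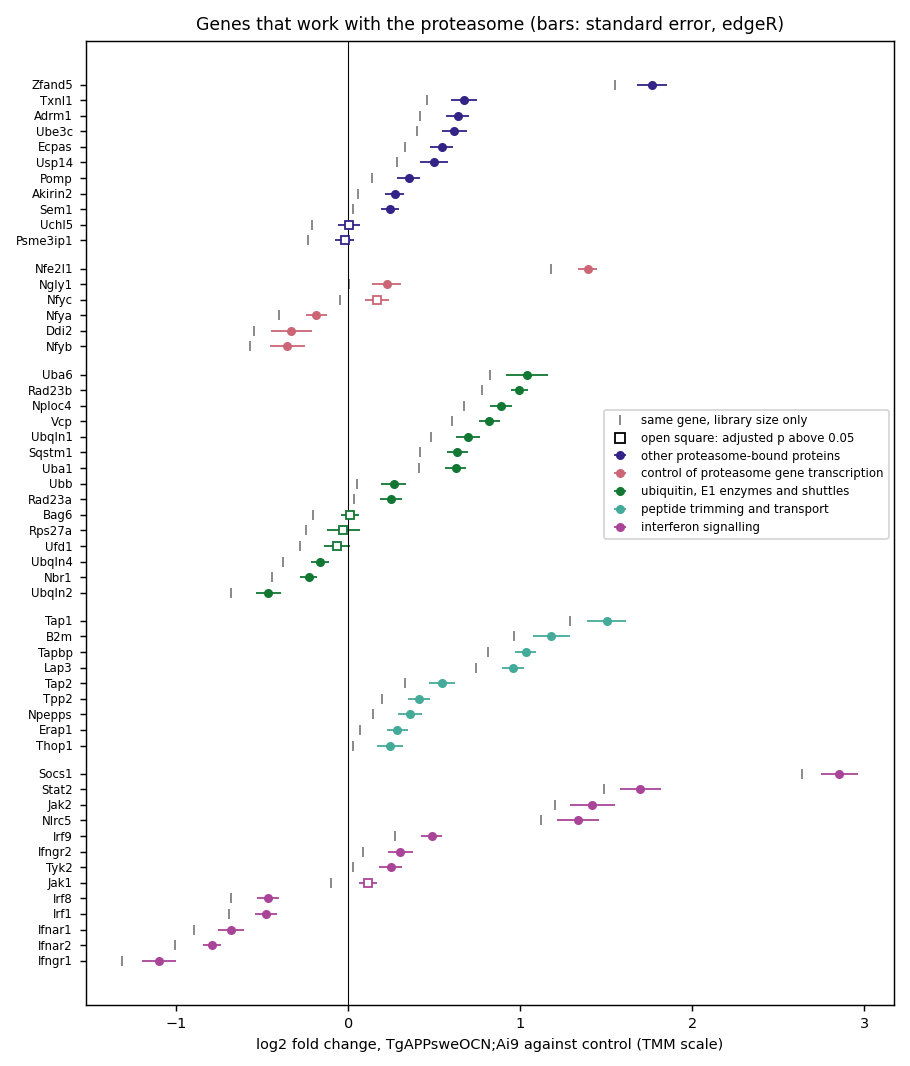
Log2 fold change of tested genes of the 5 lists on the x axis, a few of them left out, TgAPPsweOCN;Ai9 against control, one row per gene, with the standard error of edgeR as bars and grey ticks for scaling by library size only. The peptide trimming and transport genes all lie above 0, while interferon signalling genes run from -1.10 (Ifngr1) to 2.85 (Socs1).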

How the data were processed

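RNA was sequenced on a DNBSEQ platform from 3 control and 3 TgAPPsweOCN;Ai9 libraries, grouped by the genotype in the labels. The authors removed low-quality, adaptor and rRNA reads and deposited estimated counts and FPKM per gene. The submitters' processing notes name HISAT2 2.0.4, Bowtie2 2.2.5, RSEM 1.2.12, DESeq2 1.4.5 and mm10. A second deposited table repeats the FPKM of 15656 genes beside a fold change and a p-value from the authors' own comparison, which were not used here. Between 13.3% and 14.4% of the genes of a library had a fractional count, among them 4 members, although raw counts had been planned for. Fractional counts are reads divided among more than 1 gene. Division among copies was not told apart from division among overlapping genes.

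Counts were rounded to whole numbers, filtered with filterByExpr and normalized by TMM. They were compared with edgeR 4.0.16 (quasi-likelihood, R 4.3.3) over all 12701 genes left, without a replicate block, as had been planned. The deviations of same-numbered libraries correlated at r = 0.02, -0.08 and 0.16, the last above the 0.1 set as the minimum for pairing. Other pairs across the genotypes were at -0.14 to 0.07. SE is the log2 fold change over the square root of F. Thresholds were an adjusted p of 0.05 and, as the second, a log2 fold change of 1. A count of 3, the floor for counting error, is 0.136 to 0.155 CPM. For the median gene, the squared difference between 2 libraries of 1 genotype was 2.49 to 5.92 times that of sampling noise. Alternatives were DESeq2 1.42.0, limma 3.58.1 on log2(FPKM + 1) and log2(FPKM + 0.1), RLE size factors, library size alone, other filters, a gene length trend, the block, and each library left out.

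The members and lists were chosen with earlier results of these data known. Values in every library are given for the catalytic, immunoproteasome, activator and inhibitor genes, for the members with the highest and lowest fold change in each other class, and for any lowered member. From each list the highest and lowest genes that passed are named, with Irf1 and Nlrc5. The other list genes are counted without being named, and a few genes are not reported here. Psmd5, Psmd7, Psmd11, Psmd4, Psmd2, Psma8, Bglap and the further list genes were named after their values were seen. Starts and overlaps come from RefSeq and GENCODE on GRCm38.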

Additional observations from a re-analysis of the deposited data

How the results depend on the processing

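Of the 38 raised members 34 were raised under each alternative that tested them. Psmb1 and Psmc4 lost the call on library size alone and in both limma fits, Psme1 there and without control replicate 3, and Psmf1 there and without 4 of the libraries in turn. Lowered members numbered 0 in DESeq2, 4 on library size alone and 4 in each limma fit, and 0 to 1 with 1 library left out. Members raised by at least 1 numbered 2 on library size alone and 2 in each limma fit. Raised activators and inhibitor numbered 3 in those 3 fits and 3 to 5 with 1 library left out, and raised immunoproteasome genes 1 to 3. These 3 fits set the median of all genes lower, at -0.23, -0.16 and -0.22.

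On library size alone, with limma at FPKM + 1 and with limma at FPKM + 0.1, values turned below 0 for Psmb10 (-0.13, -0.11 and -0.12), Psmd8 (-0.19, -0.19 and -0.19), Psmg1 (-0.13, -0.12 and -0.13), Psmg2 (-0.19, -0.18 and -0.19), Psmg3 (-0.11, -0.10 and -0.11) and Psmg4 (-0.12, -0.13 and -0.14). With 1 library left out Psmd8 ranged from -0.0070 to 0.0572 and Psmg2 from -0.0493 to 0.0749. Counts in place of FPKM gave shares of 62.6% and 69.9% for Psmb8, 25.5% and 21.2% for Psmb9 and 48.6% and 36.4% for Psmb10, in control and TgAPPsweOCN;Ai9. Levels recomputed per kilobase with TMM library sizes put the median member at 79.8 FPKM in TgAPPsweOCN;Ai9, against 74.0. On library size alone 2 proteasome-bound genes and 8 ubiquitin genes were lowered, and 1 transcription control gene was raised. A replicate block changed none of the 49 calls, with 38 members raised, and the labels do not say whether the numbers pair the libraries. The sum of Psme2 and Psme2b was added after the data were seen. Psmc3ip and Psma8 had the fewest counts among the members, and the effect of depth on them was not tested.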

Other observations

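The genes on either side of Psma6 and Psme2, within 100000 bases of them on GRCm38, were read after the values of these members had been seen. Near Psma6 on chromosome 12, Ppp2r3c, a phosphatase subunit, and Prorp, a mitochondrial RNase P subunit, had log2 fold changes of 0.56 and 0.45 (edgeR adjusted p = 0.00126 and 0.00277). Nfkbia, the inhibitor of NF-kappaB, lies 70950 bases from Psma6 and went from a mean of 93.5 to 348 FPKM, a log2 fold change of 2.11 ± 0.13 (edgeR adjusted p = 2.44e-06). Psma6, at 1.96, thus had a neighbour with a change of like size.

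Near Psme2 on chromosome 14, Rnf31, an E3 ligase that lies 612 bases away, was at 0.55 and Irf9, the interferon factor, at 0.48 (edgeR adjusted p = 6.67e-05 and 0.000193). Emc9, which lies between Psme1 and Psme2, was at -0.22 and did not pass (adjusted p = 0.207). Mdp1 was lowered (-1.11) and Ipo4, an importin, was raised (0.74). None of the neighbours tested near Psme2 had a log2 fold change as large as the 2.07 of Psme2.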
